A study of Homo sapiens with 8 samples.

Results

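The septin genes read here are SEPTIN2, SEPTIN6, SEPTIN7, SEPTIN8, SEPTIN9, SEPTIN10 and SEPTIN11, which GENCODE release 29 lists as SEPT2, SEPT6, SEPT7, SEPT8, SEPT9, SEPT10 and SEPT11. They were taken by name, and their splice junctions were those lying on an annotated intron or at an annotated splice site of these genes. This gave 7 genes of the 21212 whose introns were counted, and 482 junctions of the 860791 listed in the 8 libraries. Of the 482 junctions, 186 were annotated introns and 296 were not annotated. Positions are on hg38. SEPTIN2 (ENSG00000168385.17) lies on chromosome 2 from 241315100 to 241354027 on the plus strand. SEPTIN6 (ENSG00000125354.22) lies on chromosome X from 119615724 to 119693370 on the minus strand. SEPTIN7 (ENSG00000122545.19) lies on chromosome 7 from 35800932 to 35907105 on the plus strand. SEPTIN8 (ENSG00000164402.13) lies on chromosome 5 from 132750817 to 132807241 on the minus strand. SEPTIN9 (ENSG00000184640.17) lies on chromosome 17 from 77280569 to 77500596 on the plus strand. SEPTIN10 (ENSG00000186522.14) lies on chromosome 2 from 109542982 to 109614206 on the minus strand. SEPTIN11 (ENSG00000138758.11) lies on chromosome 4 from 76949703 to 77040384 on the plus strand.

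Septins are GTP-binding proteins that assemble side by side into rods, and the rods join end to end into filaments. Filaments underlie the cleavage furrow and the midbody in dividing cells, shape the cell cortex and bind actin, microtubules and membranes. Members fall into groups that can replace each other in the rod: SEPTIN2 belongs to the group that also holds SEPTIN5, SEPTIN9 to the SEPTIN3 group, and SEPTIN6, SEPTIN8, SEPTIN10 and SEPTIN11 to the SEPTIN6 group. SEPTIN7 is the member with no close substitute and is present in almost every rod. The SEPTIN6 group proteins end in a coiled-coil tail, and alternative splicing gives several family members different ends. SF3B1 is a protein of the spliceosome's U2 snRNP and takes part in choosing the branch point that lies ahead of a splice acceptor (the intron's end). Its K700E substitution, recurrent in myelodysplastic syndromes, is known for the use of acceptors a short distance upstream of the usual ones.

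Total RNA was sequenced from K562 cells, an erythroleukaemia line, of genotype SF3B1 K700E or SF3B1 wild type (WT). Libraries were made at day 4 and day 8, with 2 per genotype and day and 8 in all. The protocol given for every sample is induction of the modified allele with doxycycline, so WT samples carry that label too. The labels do not say whether replicates came from separate cultures or whether a genotype is 1 clone, so the p-values measure only the spread between these libraries, which may be technical. The libraries held 49338071 to 77750812 uniquely mapped junction reads.

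The day 8 libraries did not follow their genotype labels at acceptors of this kind. Near-upstream acceptors, here those 1 to 50 nt upstream of the most used annotated acceptor of the same donor, were called higher in K700E at day 4 at 147 sites of genes outside the family. Their median use was 17.7% and 15.0% in the K700E day 4 libraries and 0.382% and 0.398% in the WT day 4 libraries, values that chose them. At day 8, which did not choose them, it was 0.962% in the library labelled K700E replicate 1 and 17.1% in the library labelled K700E replicate 2. It was 0% in the library labelled WT replicate 1 and 15.0% in the library labelled WT replicate 2. Comparisons of genotype therefore rest on the 4 day 4 libraries, day 8 values are given library by library, and no library was moved to another group. A label names the cells as epithelial. Of 7 epithelial marker genes, the cadherin gene CDH1 and CLDN4 had at most 0.042 CPM (the normalised read count) in all 8 libraries, while the adhesion gene EPCAM had 6.90 to 112 CPM, and the keratin genes KRT8, KRT18 and KRT19 had 164 to 1029, 216 to 1192 and 32.9 to 362 CPM. Their summed level was 488 to 688 CPM in the K700E and 868 to 986 CPM in the WT libraries at day 4. All 5 tested were below 0 in log2 change at day 4 (KRT18 -0.84, ELF3 -5.36) and none passed (adjusted p 0.0962 for KRT18 and 0.107 for ELF3 by edgeR). The erythroid factor GATA1 had 122 to 213 CPM. Of 11 erythroid marker genes 9 were below 0 at day 4 and none passed, with day 4 sums of 929 to 1621 CPM in K700E and 1555 to 1837 CPM in WT. Much of these sums was TFRC, with 969 and 605.5 CPM in K700E and 1172 and 914 CPM in WT. Of the HBG1 junction reads 83.6% were multi-mapped. The summed level of 6 megakaryocyte marker genes was 129 to 139 CPM in the K700E and 13.3 to 25.3 CPM in the WT libraries at day 4. The day 8 sums were 40.4 to 516 CPM in libraries labelled K700E and 75.1 to 97.0 CPM in those labelled WT. Among the megakaryocyte genes ITGA2B, an integrin subunit of platelets, rose at day 4 (log2 change 2.60, adjusted p 0.0418 by edgeR). PF4 and GP9 stayed at or under 0.176 CPM. The part of these marker differences in the septin values was not tested.

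The sequences at both near-upstream acceptors called in the family are shown first, since the bases between the acceptors are what the alternative RNAs gain. In SEPTIN6 the intron starts at the donor at 119629317 and ends at the reference acceptor at 119625380 or at the near-upstream acceptor at 119625397, 17 bases earlier in the transcript. Spliced sequence is written as RNA is read, with the last 30 bases of the exon before the intron, and capitals mark the bases gained.
SEPTIN6 with the reference acceptor: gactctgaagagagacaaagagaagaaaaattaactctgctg
SEPTIN6 with the near-upstream acceptor: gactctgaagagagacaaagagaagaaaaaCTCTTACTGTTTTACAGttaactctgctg
In SEPTIN2 the intron starts at 241335213 and ends at 241335974, the reference acceptor, or at 241335958, which is 16 bases upstream.
SEPTIN2 with the reference acceptor: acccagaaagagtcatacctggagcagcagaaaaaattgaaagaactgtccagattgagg
SEPTIN2 with the near-upstream acceptor: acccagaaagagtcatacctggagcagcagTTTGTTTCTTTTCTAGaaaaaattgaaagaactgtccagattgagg
Both gained stretches end in AG and are mostly pyrimidines, 70.6% of 17 bases in SEPTIN6 and 81.2% of 16 bases in SEPTIN2. For SEPTIN2 the intron before them can be read from an annotated transcript that retains it, SEPT2-225, at chr2:241335899-241335974 on the plus strand. Capitals again mark the bases between the acceptors.
SEPTIN2 intron end: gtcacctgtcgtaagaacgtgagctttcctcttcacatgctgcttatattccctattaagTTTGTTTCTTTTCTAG
All sequences are from the GENCODE release 29 transcripts.

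SEPTIN6 showed the largest change in acceptor use of the family. The near-upstream acceptor took 278 of 703 reads of its donor in K700E replicate 1, a share of 39.5% (95% Wilson interval 36.0% to 43.2%), and 337 of 829 reads in K700E replicate 2, or 40.6% (37.4% to 44.0%). In the WT libraries it took 13 of 525 reads, or 2.48% (1.45% to 4.19%), and 21 of 683 reads, or 3.08% (2.02% to 4.66%). Every K700E library at day 4 was thus above every WT library, with no overlap of the intervals, which cover counting error only. The mean was 40.1% ± 0.783 in K700E and 2.78% ± 0.423 in WT (SD, n = 2 each), a rise of 37.3 percentage points. It passed the test with an adjusted p of 8.46e-06 (edgeR), over all 70418 acceptors tested in the transcriptome. This junction was named for study with its change already known, so its p is not independent evidence. The call was lost without WT replicate 2 (adjusted p 0.0521), when the change was 37.6 points.

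At day 8 the same acceptor took 16 of 369 reads, or 4.34% (2.69% to 6.93%), in the library labelled K700E replicate 1 and 167 of 415 reads, or 40.2% (35.6% to 45.0%), in the library labelled K700E replicate 2. It took 16 of 498 reads, or 3.21% (1.99% to 5.16%), in the library labelled WT replicate 1 and 190 of 575 reads, or 33.0% (29.3% to 37.0%), in the library labelled WT replicate 2. The library of each genotype numbered 2 was therefore near the day 4 K700E level and the library numbered 1 near the day 4 WT level. The fit of the 4 day 8 libraries alone made no call for this acceptor (4.16 points, adjusted p 1).

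**Figure D1:**
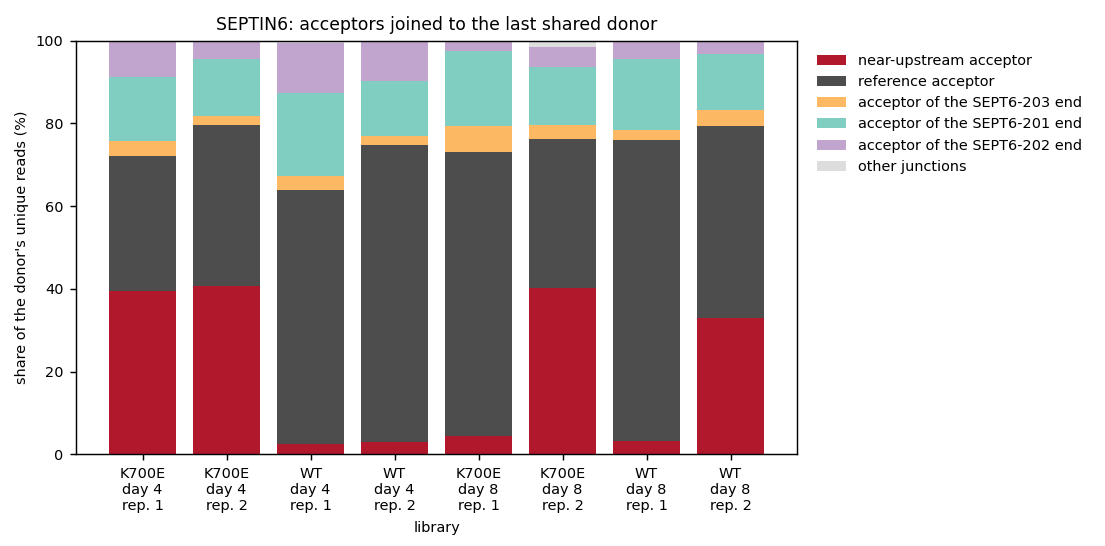
Share of the unique reads (%) leaving the last donor shared by the SEPTIN6 transcripts that goes to each acceptor, in each of the 8 libraries, K700E left of WT at each day. The near-upstream share is 39.5% and 40.6% in the K700E day 4 libraries, 2.48% and 3.08% in the WT day 4 libraries, and high in replicate 2 of both genotypes at day 8.

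Most of the rise at the near-upstream acceptor was matched by a fall at the reference acceptor, while the share entering the exon behind them overlapped between the groups. The reference acceptor had 32.6% and 39.0% of the donor's reads in K700E and 61.5% and 71.7% in WT at day 4, a difference of -30.9 points (adjusted p 0.144 by edgeR's test of use, 0.0430 by limma's). Both acceptors lead into the same small exon, 62 bases long from the near-upstream and 45 bases from the reference acceptor. Together they took 72.1% and 79.6% of the donor's reads in K700E and 64.0% and 74.8% in WT, so the groups overlapped. Counting only reads into this exon, the near-upstream share was 54.8% and 51.1% in K700E and 3.87% and 4.11% in WT at day 4. At day 8 that share was 5.93% and 52.8% in the libraries labelled K700E and 4.22% and 41.7% in those labelled WT. Nearly all of the donor's remaining reads skipped the small exon and went straight to acceptors of other annotated ends, and no unannotated acceptor had more than 3 of its reads in a library at day 4. The end of SEPT6-201, at 119618787, took 15.5% and 13.8% in K700E and 20.2% and 13.3% in WT, and that of SEPT6-202, at 119616743, took 8.68% and 3.98% in K700E and, with 63 of 525 and 65 of 683 reads, 12% and 9.52% in WT. Neither passed the test (adjusted p 1 and 0.799 by edgeR). The SEPT6-203 end, at 119620052, received 2.05% to 3.56% in these 4 libraries.

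The coding sequence of SEPTIN6 ends at this place, so the choice of acceptor alters the end that the RNA encodes. In GENCODE the reference acceptor is used by 4 transcripts, 3 of them protein coding, and the near-upstream acceptor by 1 transcript without a coding sequence, SEPT6-207. Read from the start codon of SEPT6-204, an RNA with the reference acceptor has 427 codons before a TAA stop whose first base is base 2 after the junction. With the 17 added bases that stop is out of frame, and no stop follows within the small exon. The open frame then depends on the next exon joined. With the exon at acceptor 119620052 it has 491 codons before a TAG stop, with that at 119618787 it has 469 codons, and with that at 119616743, the last exon of SEPT6-204, it has 526 codons. The small exon was joined to 119620052 in 77.3% and 74.8% of its outgoing reads in K700E and 74.5% and 82.5% in WT at day 4. It was joined to 119618787 in 19.4% and 20.6% in K700E and 22.8% and 14.7% in WT. These counts do not tell which of the acceptors a read's molecule used, and no protein was measured.

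SEPTIN2, a subunit of the SEPTIN2 group, had the second near-upstream acceptor called. Its use was 7.23% (100 of 1383 reads, interval 5.98% to 8.72%) and 7.30% (92 of 1260 reads, 5.99% to 8.87%) in the K700E libraries at day 4. In the WT libraries it was 2.01% (26 of 1292 reads, 1.38% to 2.93%) and 1.15% (19 of 1649 reads, 0.739% to 1.79%). The groups did not overlap, and the mean was 7.27% ± 0.0502 in K700E and 1.58% ± 0.608 in WT (SD, n = 2 each). The rise of 5.68 points passed the test at an adjusted p of 0.00712 (edgeR). It did not pass when any 1 of the 4 libraries was left out (adjusted p 0.0556 to 0.462, changes of 5.25 to 6.11 points). At day 8 the use was 2.00% (1.28% to 3.10%) and 8.00% (6.32% to 10.1%) in the libraries labelled K700E and 1.08% (0.675% to 1.72%) and 9.51% (7.62% to 11.8%) in those labelled WT. As in SEPTIN6, the libraries numbered 2 were the higher ones under both labels.

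The gained bases fall inside the SEPTIN2 coding sequence rather than at its end. The junction follows 72 whole codons of SEPT2-201 and the first base of the next. With the reference acceptor the frame runs for 361 codons. With the 16 added bases it meets a TGA stop after 80 codons, 888 bases before the last exon junction of that transcript. GENCODE has 6 transcripts with the near-upstream acceptor, of which 2 are classed as nonsense-mediated decay and 4 as without coding sequence; the reference acceptor is in 22, 14 of them protein coding. The reference acceptor had 91.3% and 91.8% of the donor's reads in K700E and 97.2% and 97.9% in WT at day 4, a difference of -5.97 points that passed limma's test (adjusted p 0.0271) and not edgeR's (adjusted p 1). A further annotated acceptor of this donor, 653 bases upstream at 241335321, took 0.579% to 0.788% in these libraries.

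SEPTIN8, a SEPTIN6 group member, had more use in K700E at day 4 of sites that would bound an exon GENCODE does not list. Reads joined the annotated donor at 132760801 to an unannotated acceptor at 132760014, and an unannotated donor at 132759936 to the annotated acceptor at 132758825, both with canonical motifs. These sites would bound an exon of 77 bases, 132759937 to 132760013, inside the intron from 132758825 to 132760801. The counts do not tell whether the same molecules used both sites. The acceptor took 110 of 1690 reads, or 6.51% (5.43% to 7.79%), and 70 of 1530 reads, or 4.58% (3.64% to 5.74%), in the K700E libraries at day 4. In the WT libraries it took 1 of 1574 reads, or 0.0635% (0.0112% to 0.359%), and 0 of 1219 reads (0% to 0.314%). The K700E libraries were both far above the WT libraries, with a mean of 5.54% ± 1.37 against 0.0318% ± 0.0449 (SD, n = 2 each). The rise of 5.51 points had an adjusted p of 2.56e-05 by edgeR and 0.0997 by limma. Only the K700E libraries had the 5 reads that the test asks for, so the acceptor was tested because it was high there, which limits what its p and its call can show. Without either K700E library it could not be tested.

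Upstream and downstream ends of this possible SEPTIN8 exon gave related but unequal pictures. Of the reads at acceptor 132758825, the unannotated donor gave 11.3% (146 of 1292, interval 9.69% to 13.1%) and 8.15% (89 of 1092, 6.67% to 9.92%) in K700E. It gave 1.79% (22 of 1226, 1.19% to 2.702%) and 2.04% (20 of 979, 1.33% to 3.13%) in WT. The rise of 7.81 points was the donor call of the family, at an adjusted p of 0.0482 (edgeR), and it was lost without any 1 of the 4 libraries (adjusted p 0.144 to 1). In WT the donor was thus in use with hardly any reads at the acceptor at 132760014. Other unannotated acceptors of donor 132760801, lying upstream of the unannotated donor in the transcript, had a few reads at day 4. The acceptor at 132760455 had 1 and 0 reads in K700E and 8 and 1 in WT, and that at 132760052 had 0 and 1 in K700E and 7 and 0 in WT. That at 132760199 had 5 and 0 in K700E and 4 and 1 in WT. Those at 132760119 and 132760026 had 6 and 4 reads in K700E replicate 1, and 0 in K700E replicate 2 and both WT libraries. The counts do not tell which of these acceptors, if any, the WT reads of the donor at 132759936 came through. At day 8 the acceptor took 0.176% (0.0600% to 0.518%) and 2.94% (2.08% to 4.14%) in the libraries labelled K700E and 0.954% (0.534% to 1.70%) and 4.37% (3.57% to 5.34%) in those labelled WT. The donor gave 2.58% (1.87% to 3.54%) and 7.22% (5.64% to 9.20%) in those labelled K700E and 5.40% (4.06% to 7.14%) and 8.20% (6.75% to 9.92%) in those labelled WT. The libraries numbered 2 again had the higher value of each pair. A length of 77 bases leaves a remainder of 2 after division by 3.

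**Figure D2:**
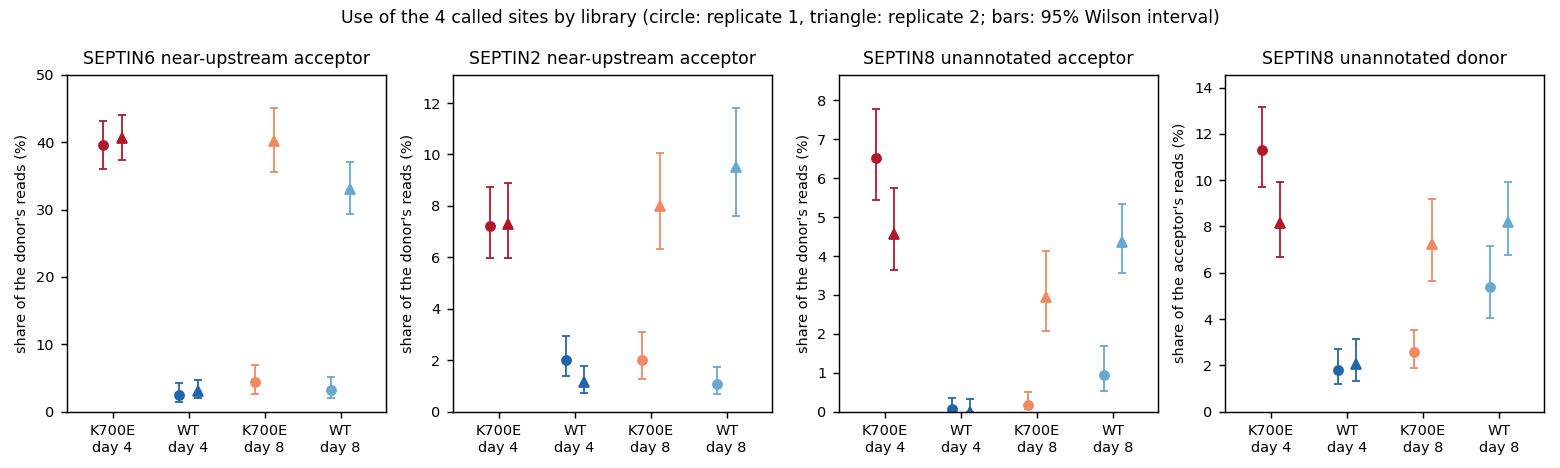
Use of the 4 called septin sites (% of the reads of the donor or acceptor they share) in each library, K700E left of WT at each day, with 95% Wilson intervals as bars. The day 4 groups do not overlap in any panel, and at day 8 replicate 2 is the higher library of both genotypes.

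Across the family 65 acceptors and 60 donors could be tested at day 4, none of them in SEPTIN10. Calls were made for 3 acceptors (those of SEPTIN6, SEPTIN2 and SEPTIN8), which is 4.62% of the 65, beside 0.46% of all acceptors tested in the transcriptome. The donor call, in SEPTIN8, was 1 of 60 or 1.67%, beside 0.0307% of all donors. SEPTIN6 was chosen with its change known, and the SEPTIN8 acceptor could be tested only because it was high in K700E. The SEPTIN8 donor call lies at the other end of the same possible exon, and the SEPTIN2 call was lost without any 1 library. The family's shares are therefore only descriptions. The median change over the 65 acceptors was 0 points, and -0.02 over all 70418. Without the minimum of 5 points, 5 septin acceptors passed the adjusted threshold, beside 0.741% of all acceptors. The additional pair were unannotated junctions that took few of their donor's reads. In SEPTIN2, the unannotated acceptor 241337679 had 1.53% and 0.840% in K700E and 0% in both WT libraries (adjusted p 0.0421 by edgeR). In SEPTIN7, the junction from donor 35873776 to the annotated acceptor 35890667 had 0.0377% and 0% of that donor's reads in K700E and 0.663% and 0.590% in WT (adjusted p 0.0413 by edgeR). Each had the 5 reads asked for in a library only in the group where it was higher, with 16 and 9 reads in K700E and 0 in both WT libraries for the SEPTIN2 junction, and 1 and 0 reads in K700E and 17 and 18 in WT for the SEPTIN7 junction. They could be tested only because they were high there, which limits what their p can show.

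Near-upstream acceptors were listed 17 times in the family and 7 of them were annotated. Of the 17, 4 had the reads to be tested, and the pair above was called. The share called among all tested near-upstream acceptors is not given here, and SEPTIN6 was chosen with its change known. This count is therefore only a description. Another, in SEPTIN2 at 241351942, 24 bases upstream of its reference, had 2.46% and 2.10% in K700E and 2.40% and 1.19% in WT, with overlapping groups (adjusted p 1 by edgeR). The last, in SEPTIN7 at 35898214, 33 bases upstream, was lower in K700E, at 1.33% and 1.42% against 2.39% and 3.57% in WT, and did not pass (adjusted p 0.266). The 13 untested ones had at most 12 reads in a library. The SEPTIN7 acceptor at 35873613, 27 bases upstream of its reference, held those 12 reads. Its use was 0.451% and 0.175% in K700E and 0.0384% and 0.0345% in WT at day 4. The day 8 use was 0.0881% and 0.424% in the libraries labelled K700E and 0% and 0.485% in those labelled WT.

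**Figure D3:**
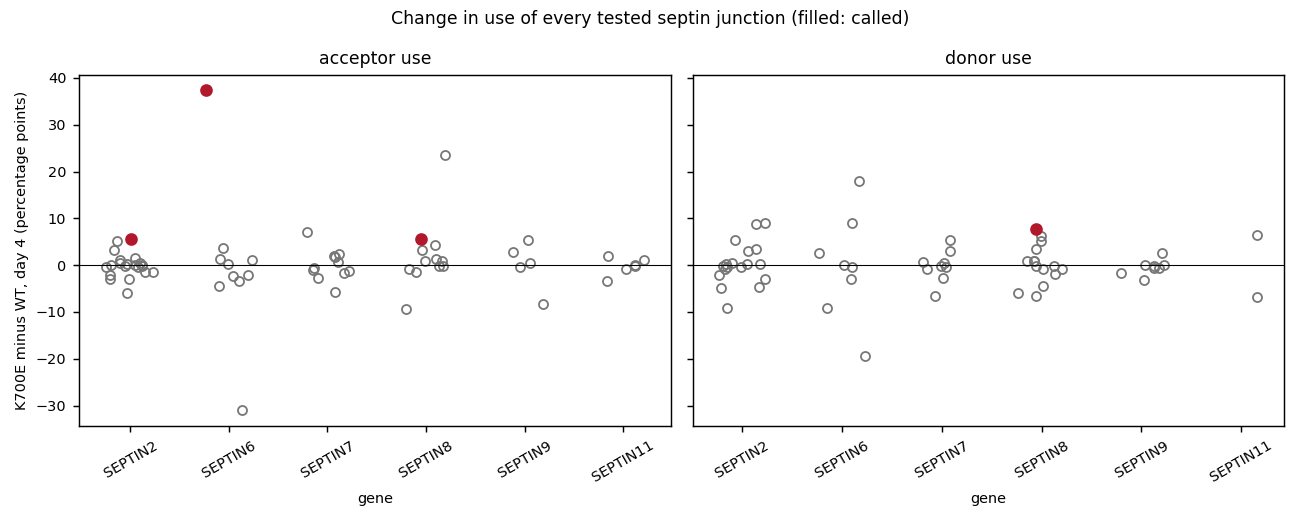
Change in use (percentage points, K700E minus WT at day 4) of every tested septin acceptor and donor by gene, with filled points for those called. Most points lie close to 0, and the SEPTIN6 near-upstream acceptor at 37.3 points stands apart from the rest.

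Changes of 5 points or more were seen at 12 tested acceptors and 17 tested donors of the family, and most did not pass the test. Over all genes 16211 of the 70418 acceptors and 15178 of the 65156 donors moved that far. Several of these septin sites had few reads. In SEPTIN8 the unannotated donor at 132759936 went to acceptor 132758825 in 82.0% and 85.6% of its reads in K700E and 57.9% and 62.5% in WT. The annotated skipping junction from 132760801 to 132758825 had 66.7% and 64.4% of its donor's reads in K700E and 74.8% and 74.9% in WT. Both had an adjusted p of 1 by edgeR. A less used annotated end of SEPTIN8, 132752182 of the principal transcript SEPT8-207, took 19.1% and 23.01% in K700E and 17.9% in both WT libraries. Donors 132777107 and 132778084 at acceptor 132765530 changed by -6.60 and 6.32 points (adjusted p 1 and 0.887), and the unannotated donor at acceptor 132752179 by 5.06 points with 5 and 6 reads in K700E and 0 in WT (adjusted p 0.454).

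In SEPTIN6 the last donor's share of acceptor 119616743 was 80.3% and 57.9% in K700E and 91.3% and 85.5% in WT, and that of the small exon's donor 17.1% and 42.1% in K700E and 8.70% and 14.5% in WT. At acceptor 119618787 the small exon's donor gave 46.6% and 52.9% in K700E and 38.7% and 42.5% in WT, and the last donor 53.4% and 46.3% in K700E and 61.3% and 56.9% in WT. None passed (adjusted p 0.980 to 1). SEPTIN7 donor 35801271 went to acceptor 35831491 in 55.1% and 71.2% of its reads in K700E and 56.99% and 55.1% in WT, with overlapping groups. Its acceptor 35832797 took 42.8% and 28.3% in K700E and 37.8% and 44.5% in WT, and the donors at that acceptor moved by -6.51 and 5.45 points. The other members of 5 points or more were in the first exons of SEPTIN2, namely acceptor 241324215 (5.11 points) and donors 241315611, 241315983, 241316556 and 241324242 (-9.19, 8.92, 8.85 and 5.33 points). In SEPTIN9 the unannotated junctions from the annotated donor 77319804 ended at acceptors 77402058 and 77487481, whose use changed by -8.23 and 5.35 points. In SEPTIN11 they were the donors at acceptor 76996424 described below. All of these had an adjusted p of 1 by edgeR.

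No septin gene passed the test of its level at day 4, where 0.529% of 13991 genes were called. The test was run on 6 of the 7 genes, 4 of them lower and 2 higher in K700E, with a median log2 change of -0.15 beside 0.02 over all genes tested. An unadjusted p under 0.05 was reached by 3 of them, beside 21.3% of all genes tested. SEPTIN7, the common subunit of the rods, had 380 and 415 CPM in K700E and 503 and 502 CPM in WT (log2 change -0.32, SE 0.12, adjusted p 0.204 by edgeR). SEPTIN2 had 174 and 206 CPM in K700E and 249 CPM in both WT libraries (-0.37, SE 0.14, adjusted p 0.212). SEPTIN9, the SEPTIN3 group subunit found in the longer kind of rod, had 142 and 179 CPM in K700E and 123 and 121 CPM in WT (0.41, SE 0.16, adjusted p 0.216). The day 4 groups did not overlap in these 3 genes. The share of all genes whose groups separate is not given here, so separation in a septin gene, here and below, is only a description. SEPTIN9 was called only without K700E replicate 1 (log2 change 0.57). That fit held 1 K700E library and called far more of all genes than the fit of the 4 libraries.

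None of the 3 tested members of the SEPTIN6 group reached an unadjusted p of 0.05 at day 4, and whether their changes differ from those of the other septins was not tested. SEPTIN6 had 83.5 and 130 CPM in K700E and 87.6 and 96.7 CPM in WT (log2 change 0.23, SE 0.23, adjusted p 0.612). SEPTIN8 had 178 and 199 CPM in K700E and 241 and 164 CPM in WT (-0.09, SE 0.21, adjusted p 0.842). SEPTIN11 had 89.5 and 101 CPM in K700E and 112 and 110 CPM in WT (-0.20, SE 0.13, adjusted p 0.424). The groups overlapped in SEPTIN6 and SEPTIN8 and not in SEPTIN11. SEPTIN10 had 20 and 1 reads in K700E and 0 reads in both WT libraries, and 3 and 3 reads in the day 8 libraries labelled K700E and 0 in those labelled WT. Most of its reads were in 1 library, it failed the expression filter and it was not tested; a count of 0 allows up to 3 reads. In such bulk samples, fewer cells expressing a gene and less RNA per cell cannot be told apart.

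At day 8 SEPTIN7 had 242 and 223 CPM in the libraries labelled K700E and 412 and 284 CPM in those labelled WT. SEPTIN6 had 66.5 and 58.4 CPM in those labelled K700E and 86.7 and 107 CPM in those labelled WT. These were the expressed members whose day 8 groups did not overlap, and the fit of day 8 alone called neither. That separation is only a description, since the share over all genes is not given and the day 8 labels carry the limit stated above. SEPTIN9 ran from 182 to 322 CPM at day 8 and from 121 to 179 CPM at day 4, so all 4 later libraries were above all 4 earlier ones. SEPTIN2 had 176 and 136 CPM in the libraries labelled K700E and 223 and 130 CPM in those labelled WT. SEPTIN8 had 284 and 158 CPM in those labelled K700E and 197 and 294 CPM in those labelled WT. SEPTIN11 had 112 and 96.4 CPM in those labelled K700E and 144 and 102 CPM in those labelled WT. The difference between days was not tested.

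**Figure D4:**
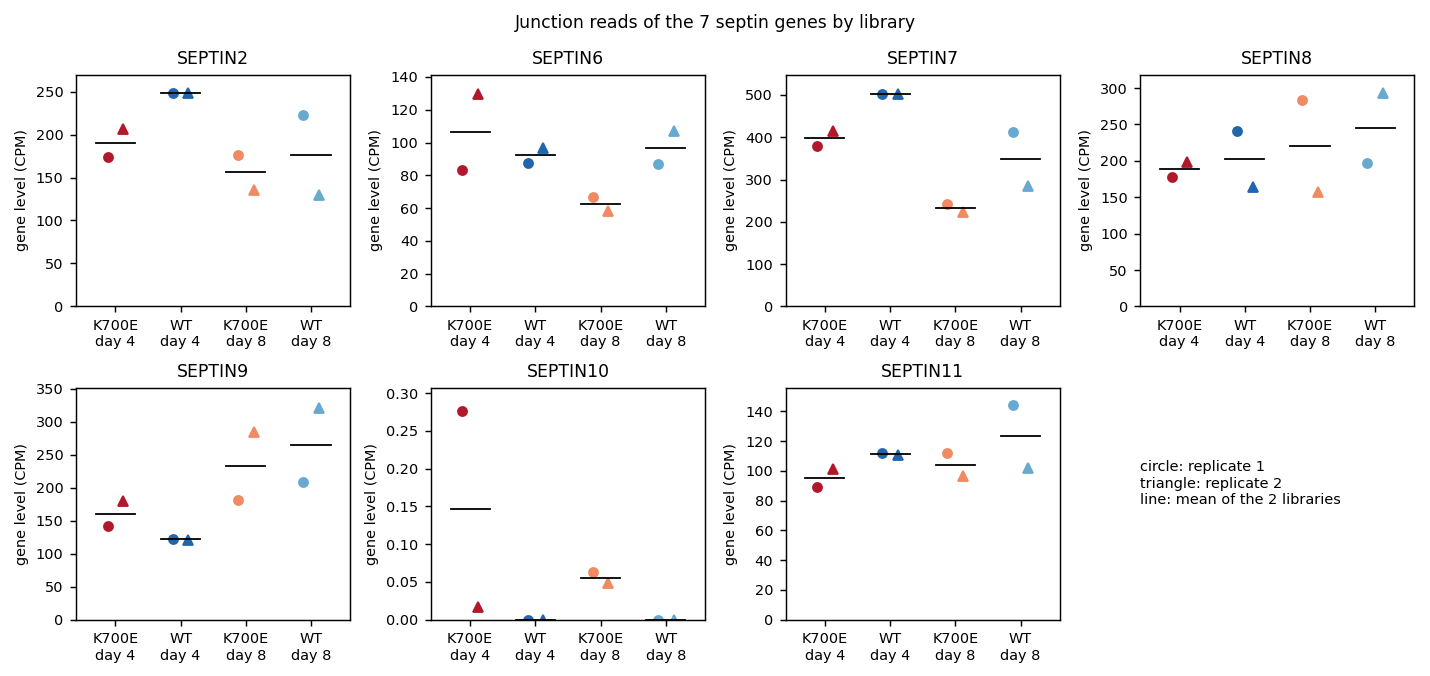
Gene level (CPM, from unique reads over annotated introns) of each septin gene in each library, K700E left of WT at each day, with a line at the mean of the 2 libraries. SEPTIN2 and SEPTIN7 are lower and SEPTIN9 is higher in both K700E than in both WT libraries at day 4, SEPTIN9 is higher at day 8 than at day 4, and SEPTIN10 stays under 0.3 CPM.

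Levels of different genes were set side by side per intron, as mean CPM over the introns of the principal transcript. For some genes that transcript includes an intron of a less used start or end, as in SEPTIN6, SEPTIN8 and SEPTIN9. Such an intron lowers the mean, so the order of the genes depends in part on the transcript chosen. At day 4 SEPTIN7 was the highest, at 32.5 ± 2.06 in K700E and 40.8 ± 0.0584 in WT (SD, n = 2 each). It was not the highest in 3 of the 4 day 8 libraries. In the library labelled K700E replicate 1 SEPTIN8 had 27.0 and SEPTIN7 19.3, and in that labelled K700E replicate 2 SEPTIN9 had 24.7 and SEPTIN7 17.8. In the library labelled WT replicate 2 SEPTIN8 had 29.3, SEPTIN9 28.2 and SEPTIN7 22.7. At day 4 SEPTIN8 followed with 18.1 ± 1.44 in K700E and 19.5 ± 5.27 in WT. SEPTIN2 had 15.3 ± 1.82 in K700E and, with libraries at 19.94 and 20.06, a WT mean between them. In WT these last 2 did not differ beyond their spread. SEPTIN9 stood at 14.2 ± 2.35 in K700E and 10.8 ± 0.0606 in WT, SEPTIN11 at 10.5 ± 0.941 in K700E and 12.3 ± 0.109 in WT, and SEPTIN6 at 9.80 ± 3.08 in K700E and 8.54 ± 0.437 in WT. In K700E, SEPTIN6 and SEPTIN11 did not differ beyond their spread, and neither did SEPTIN9 and SEPTIN2. SEPTIN10 had at most 0.0276. Within the SEPTIN6 group the order by mean over all 8 libraries was SEPTIN8, SEPTIN11, SEPTIN6 and SEPTIN10. Multi-mapped reads made up 2.63% of the junction reads of SEPTIN9, 0.414% of SEPTIN2 and 0.187% of SEPTIN7, a gene with processed copies elsewhere in the genome; for the other 4 genes the share was at most 0.118%.

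SEPTIN9 and SEPTIN11 choose among exons at their starts, and these choices were tested at day 4 as donors of a shared acceptor. In SEPTIN9 acceptor 77402058 was joined mainly to the donor at 77320349, which ends the first exon of SEPT9-201 (77319515 to 77320348). That donor gave 80.5% and 76.8% of its reads in K700E and 73.5% and 78.4% in WT. The 57-base second exon of SEPT9-203 (77307141 to 77307197) gave 9.91% and 7.62% in K700E and 11.2% and 9.80% in WT. Neither passed the test (adjusted p 1 by edgeR), and the groups overlapped for both. At day 8 the 57-base exon gave 16.8% and 19.9% in the libraries labelled K700E and 33.4% and 21.0% in those labelled WT, all above the day 4 values. In SEPTIN11 the 158-base exon from 76995781 to 76995938, present in SEPT11-205, SEPT11-209 and SEPT11-213, gave 23.9% and 22.3% of the reads of acceptor 76996424 in K700E and 17.5% and 15.9% in WT. That rise of 6.38 points had an adjusted p of 1, on 22 to 33 reads a library. At day 8 it gave 8.07% and 3.51% in the libraries labelled K700E and 0.411% and 2.64% in those labelled WT. The donor of the first exon of SEPT11-201, at 76949931, gave nearly all the rest, 75.4% and 77.7% in K700E and 82.5% and 84.1% in WT at day 4.

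**Figure D5:**
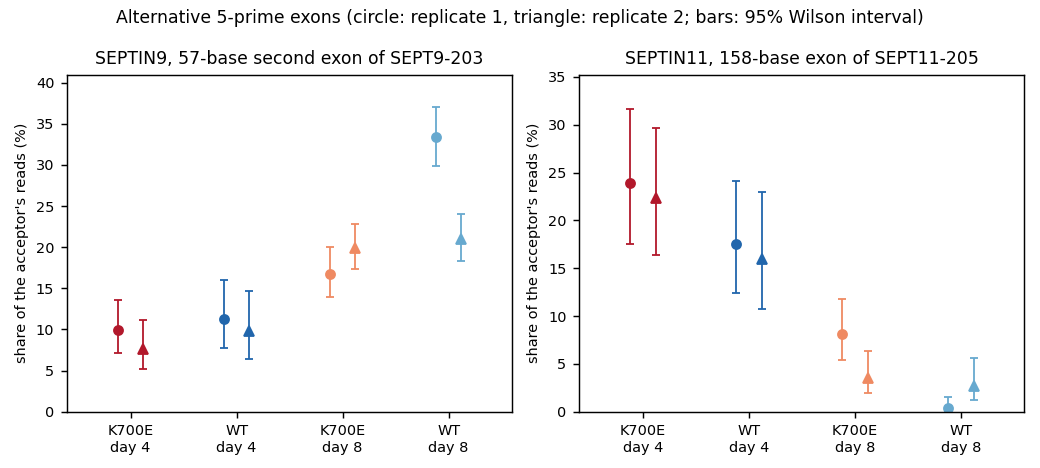
Share of the shared acceptor's reads (%) that come from the 57-base SEPTIN9 exon and from the 158-base SEPTIN11 exon in each library, K700E left of WT at each day, with 95% Wilson intervals as bars. The SEPTIN9 share is higher and the SEPTIN11 share lower in all day 8 than in all day 4 libraries.

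The other septin genes, apart from SEPT5, were hardly expressed. SEPT5, which can take the place of SEPTIN2 in the rod, had 2.62 and 3.25 CPM in K700E and 2.31 and 2.62 CPM in WT at day 4, and 6.50 to 12.8 CPM over the day 8 libraries. SEPT1, SEPT3 and SEPT4 had at most 1.20 CPM in any library, SEPT12 at most 0.097 and SEPT14 at most 0.0276. Of these 6 genes 3 were tested and none passed (by edgeR; 0 also at an unadjusted p under 0.05). Among 25 genes of septin partners and of cytokinesis, such as the contractile ring scaffold ANLN and the CDC42 effectors CDC42EP1 to CDC42EP5, 24 were tested and none passed, 8 being above and 16 below 0. Their median log2 change was -0.15, the same as that of the 6 septins and beside 0.02 over all genes, with a range of -0.92 to 0.85, and 3 of the 24 had an unadjusted p under 0.05, a share below the 21.3% of all genes. These were DIAPH1, a formin that builds actin filaments, with 856 and 1149 CPM in K700E and 474 and 649 CPM in WT (log2 change 0.85, adjusted p 0.129), MAP4, a microtubule-binding protein, with 199 and 291 CPM in K700E and 421 and 396 CPM in WT (-0.72, adjusted p 0.145), and KIF20A, a midzone kinesin, with 133 and 124 CPM in K700E and 190 and 159 CPM in WT (-0.43, adjusted p 0.182). They were picked out after their values were seen.

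Of 21237 near-upstream acceptors in other genes, the 5 whose use was closest to that of the SEPTIN6 acceptor over the 8 libraries were in SMURF2, NDRG3, SHPK, TTI1 and KANSL3. Their mean absolute difference from SEPTIN6 was 3.28 to 4.51 percentage points. In SMURF2 (chromosome 17, 64578595, 18 bases upstream) the use was 39.4% and 42.4% in K700E and 2.39% and 1.56% in WT at day 4, and 0.813% and 30.5% in the day 8 libraries labelled K700E and 8.25% and 37.5% in those labelled WT. The SHPK acceptor also lies on an annotated site of AC027796.3, so its reads cannot be given to 1 gene. The acceptors lay 14 to 37 bases upstream of their references, beside 17 in SEPTIN6. By gene level the closest to SEPTIN6 were GBP1P1, ST3GAL4 and LINC01793, with root mean square differences of 0.105 to 0.112 in centred log2(CPM + 0.5) over 8 libraries. Only ST3GAL4 had levels that rest on many reads, with 33.9 and 51.2 CPM in K700E and 36.1 and 38.9 CPM in WT at day 4; GBP1P1 never exceeded 0.744 CPM and LINC01793 never 2.08 CPM.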

How the data were processed

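Reads from 8 strand-specific total RNA libraries were, per the submitters' processing notes, processed with cutadapt and STAR on hg38. The aligner was STAR 2.7.0e with GENCODE 29 junctions in the index and GENCODE 22 added at mapping, per the file headers. Per the file headers, junctions outside the annotation were kept from 1 unique read and 12 nt of overhang where the motif was canonical, otherwise from 3 reads and 30 nt, and a read could map to 10 places. The deposited values are raw counts of unique and of multi-mapped reads per junction, and the unique counts were used.

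Use is a junction's share of the reads of its donor (acceptor use) or of its acceptor (donor use). Junctions with 5 reads in 2 libraries, at a site with a mean of 20 reads, were tested with edgeR 4.0.16 (diffSpliceDGE) in the 4 day 4 libraries and called where the Benjamini-Hochberg adjusted p was below 0.05 and the change at least 5 points. Gene counts were unique reads on introns of 1 gene; introns of several genes held 4.17% of reads and were left out. Genes were tested by edgeR's quasi-likelihood test, and CPM uses TMM factors. Alternatives used limma 3.58.1 and DESeq2 1.42.0. Other fits left out a library, changed filters, scaling or read class, or used all 8 or the day 8 libraries.

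The members, gene lists and tests were chosen with earlier results of these data known. Named were all 7 genes, every tested junction past the adjusted threshold or 5 points, 5 alike acceptors and 3 alike genes. Wilson intervals (95%) cover counting error only. Only the day 4 edgeR fits of acceptor use, donor use and gene level were tried on simulated counts. Replicate numbers were not taken as pairs.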

Additional observations from a re-analysis of the deposited data

Results flagged for a closer look

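In the results given here every K700E library lay on one side of every WT library at day 4. At day 8 every library labelled K700E lay on the other side. Other tested septin junctions reversed in the same way and are not listed in full. The share of all junctions and genes that reverse in this way is not given here, so these reversals are only a description. Among them the SEPTIN8 end 132752182 had 19.1% and 23.01% in K700E and 17.9% in both WT libraries at day 4. At day 8 that end had 15.9% and 16.3% in the libraries labelled K700E and 20.8% and 34.7% in those labelled WT. In SEPTIN8 the annotated junction from donor 132760801 to acceptor 132758825 took 66.7% and 64.4% of its donor's reads in K700E and 74.8% and 74.9% in WT at day 4, a difference of -9.30 points, and 79.2% and 71.5% in the libraries labelled K700E and 63.5% and 50.7% in those labelled WT at day 8, a difference of 18.3 points. As a share of its acceptor's reads the same junction differed by -5.92 points at day 4 and by 5.35 points at day 8. The interaction of genotype and day did not pass in the 8-library fit by edgeR (adjusted p 1 for both shares). SEPT5 had a K700E to WT ratio of mean CPM of 1.19 at day 4 and of 0.623 at day 8, with the nearest day 4 libraries both at 2.62 CPM (interaction adjusted p 0.570). The day 8 labels carry the limit stated above.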

How the results depend on the processing

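The 3 acceptor calls at day 4 became 4 with limma, 5 without a minimum change, and 1 to 2 when a library was left out in turn (1 without WT replicate 2 or either K700E replicate). The 4 by limma left out the SEPTIN8 acceptor and included the reference acceptors of SEPTIN6 and SEPTIN2, the other side of the same choices. Acceptor calls numbered 0 in the 8-library day 4 contrast, in the mean of both days and in day 8 alone. The donor call numbered 0 with multi-mapped reads, without TMM, with the replicate block, without any 1 library (0 to 0), in both 8-library contrasts and at day 8. The septin gene calls, 0 in the day 4 fit by edgeR (3 at an unadjusted p under 0.05) and 0 by DESeq2, ranged from 0 to 1 with a library left out. For the SEPTIN6 near-upstream acceptor the change was 36.8 to 37.9 points with a library left out, 37.3 in the 8-library day 4 contrast (adjusted p 1), 20.7 in the mean of both days, 4.16 at day 8 alone, and 49.0 as a share of the near-upstream and reference acceptors alone. At day 8 alone the SEPTIN2 acceptor (-0.298 points), the SEPTIN8 acceptor (-1.10) and the SEPTIN8 donor (-1.90) reversed. The causes were not tested; in the fits that include day 8, libraries under 1 label differed widely.

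Over all genes, acceptor calls numbered 324, and 8 to 110 with a library left out; donor calls numbered 20, and 81 with limma, 48 with a weak filter (1 read in 2 libraries, site mean of 5), 8 with the replicate block and 13 without TMM. Gene calls numbered 74, and 1508 with DESeq2, 1567 without a filter, 126 with the replicate block and 0 to 2536 with a library left out. The replicate block kept the 3 septin acceptor calls (SEPTIN6 adjusted p 2.86e-05 by edgeR). Same-numbered libraries deviated together weakly at day 4 (r = 0.0964 over 14902 genes) and more at day 8 (r = 0.246). The tests rest on day 4, where the numbers were read as names.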
